A study of Mus musculus with 6 samples.

Results

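The genes of the fatty acid elongation cycle, with Tecr at its last step, were followed in microglia of P15 mice whose dams received a sodium-restricted diet from E3 to E12 and in controls. The set comprised 10 of the 26789 genes in the deposited table, which were matched by Ensembl identifier to Tecr, Hacd1, Hacd2, Hacd3, Hsd17b12, Elovl1, Elovl4, Elovl5, Elovl6 and Elovl7. All 10 had a mean of at least 10 normalized counts and were among the 18007 genes tested. The set was chosen by the measured values of Tecr, which lay below all controls in all E3–E12 diet libraries, so the diet difference of Tecr is described without a test. Its fold change is not evidence of an effect, and the other 9 genes were named with it as enzymes of the cycle.

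There were 3 control and 3 E3–E12 diet libraries, and per the study's methods each came from the rostral nucleus of the solitary tract (NST) of 6 pooled littermates, so that 1 library stood for 1 litter. The study's controls were C57Bl/6 mice, and the sex of the pooled pups was not given for single libraries. E3–E12 diet mice were exposed through their mothers, which also drank distilled water in that period, and received standard chow afterwards, whereas controls had standard chow throughout. The methods describe magnetic selection on CD11b and amplification of the RNA, while the labels name laser microdissection, so the mode of isolation is uncertain. Values of single libraries are given below in the order of replicates 1, 2 and 3.

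Elongation of fatty acids takes place in the endoplasmic reticulum, where a long-chain acyl-CoA is lengthened by a pair of carbons in each turn of a cycle. An Elovl enzyme condenses the acyl-CoA with malonyl-CoA, Hsd17b12 reduces the resulting ketone, an Hacd enzyme removes water, and Tecr reduces the remaining double bond. The products are used in phospholipids, sphingolipids and myelin. The Elovl enzymes differ in the chains they accept, whereas Hsd17b12 and Tecr serve all of them.

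The labelled cell type was checked first. All 15 microglia markers, among them Csf1r and Cx3cr1, were above 0 in every library, and their summed level ranged from 122400 to 581940 normalized counts in controls and from 114770 to 389780 in E3–E12 diet mice. Markers of other brain cells were present too. The 11 oligodendrocyte markers summed to between 5625 and 44595 normalized counts in controls and between 6915 and 25540 in E3–E12 diet mice, the 7 astrocyte markers to between 1738 and 9132 and between 4723 and 9725, and the 9 neuronal markers to between 822 and 1928 and between 869 and 2295. Endothelial markers summed to between 4538 and 13535 over the 6 libraries, those of mural cells and fibroblasts to between 997 and 15809, and those of the choroid plexus to between 58.0 and 40082, the latter in E3–E12 diet replicate 1. Control replicate 2, the library highest in Tecr, stood apart in border macrophage markers (16287 against 4269 to 7226 normalized counts in the other libraries) and in neutrophil markers (3001 against 389 to 590), and the part of these cells in its level was not tested. Of the 5 border macrophage markers, 1 had all E3–E12 diet libraries below all controls, and of the 7 astrocyte markers 1 had them above, while 5.90% of all genes tested were without overlap in either direction. Erythroid markers summed to at most 219. None of these sums separated the diets. Tyrobp, a microglial signalling adaptor that was not on the marker list and was singled out after its values were seen, was at 182, 59.5 and 1494 normalized counts in the controls and listed at 0 in all E3–E12 diet libraries. Its adjusted p was 0.999 (limma), and 2.91% of all genes tested had all E3–E12 diet libraries below all controls. The cause of the values of 0 was not tested. Library totals ranged from 9407141 to 17204618 normalized counts. Control replicate 2 had the highest total and listed 10640 genes at 0, against 3459 to 7135 in the other libraries.

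Tecr encodes the trans-2-enoyl-CoA reductase that completes each turn of the cycle and also acts in the breakdown of sphingosine-1-phosphate. The gene (ENSMUSG00000031708) lies on the minus strand at chr8:83571698-83607971 of GRCm38, and its exons overlap those of no other annotated gene. Tecr was at 453, 2154 and 1312 normalized counts in the controls and at 42.8, 243 and 293 in E3–E12 diet mice. The lowest control was thus 1.54-fold above the highest E3–E12 diet library. The group means were 1306 ± 851 and 193 ± 133 (SD, n = 3 libraries each), and the log2 fold change on the log2(normalized count + 1) scale was -2.89. Among all genes tested, 2.91% had all E3–E12 diet libraries below all controls, and 162 genes (0.90%) had a lower log2 fold change than Tecr. With 1 library left out in turn, the log2 fold change of Tecr was between -3.52 and -2.02.

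**Figure D1:**
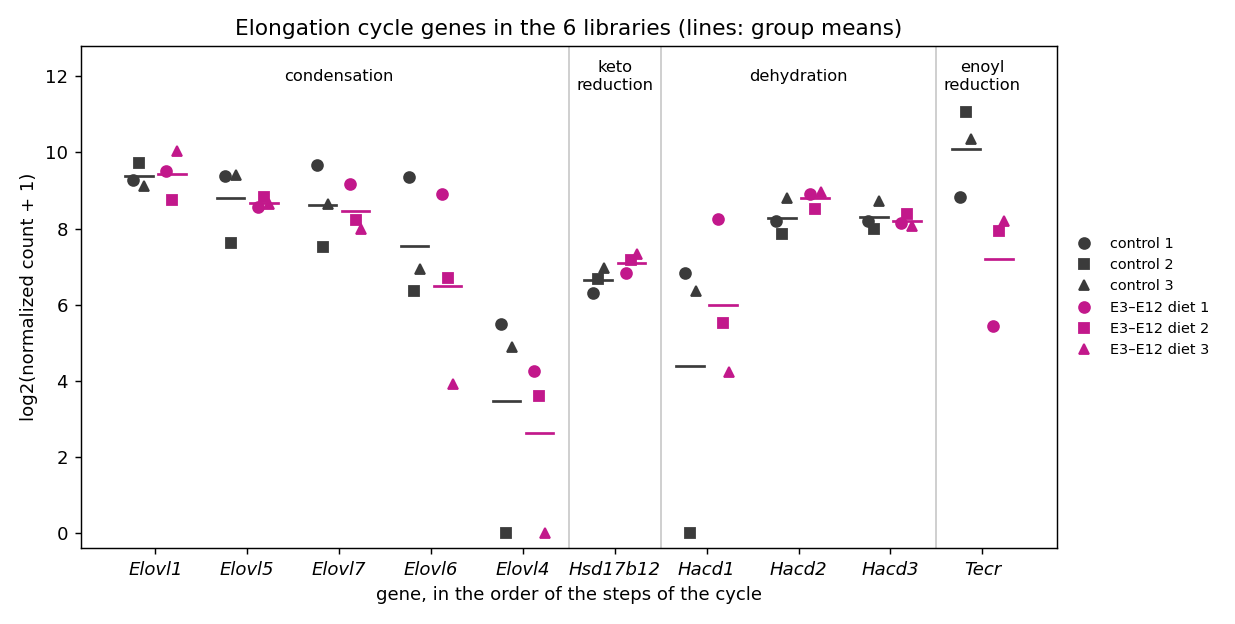
The vertical axis gives log2(normalized count + 1) of each of the 10 genes, which are ordered along the horizontal axis by the step of the cycle they serve. Points are libraries, shaped by replicate number and coloured by diet, and lines are group means. Tecr is the gene whose diets do not overlap, while Elovl4 and Hacd1 include libraries at 0.

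Within each diet the level of Tecr followed the order of the microglia markers. The geometric mean of the 15 markers was 3662, 16387 and 11457 normalized counts in the controls and 3276, 8965 and 13322 in E3–E12 diet mice. In both diets the library that was lowest in the markers was also lowest in Tecr, and the highest was highest. Expressed per 1000 normalized counts of that marker mean, Tecr was at 124, 131 and 114 in the controls and at 13.1, 27.1 and 22.0 in E3–E12 diet mice. The mean ratios were 123 ± 8.5 and 20.7 ± 7.13 (SD, n = 3 libraries each), so the spread among controls was far narrower than on the unscaled values, where Tecr ranged from 453 to 2154. This scaling was chosen after the values were seen, and the ratios restate the values that chose the set, so they are a description only. The marker means overlapped between the diets. E3–E12 diet replicate 3 (13322) was above control replicates 1 and 3 (3662 and 11457) in the markers, but below every control in Tecr. The part of the number of microglia and of the RNA per cell in the level of Tecr was not tested in these bulk samples.

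**Figure D2:**
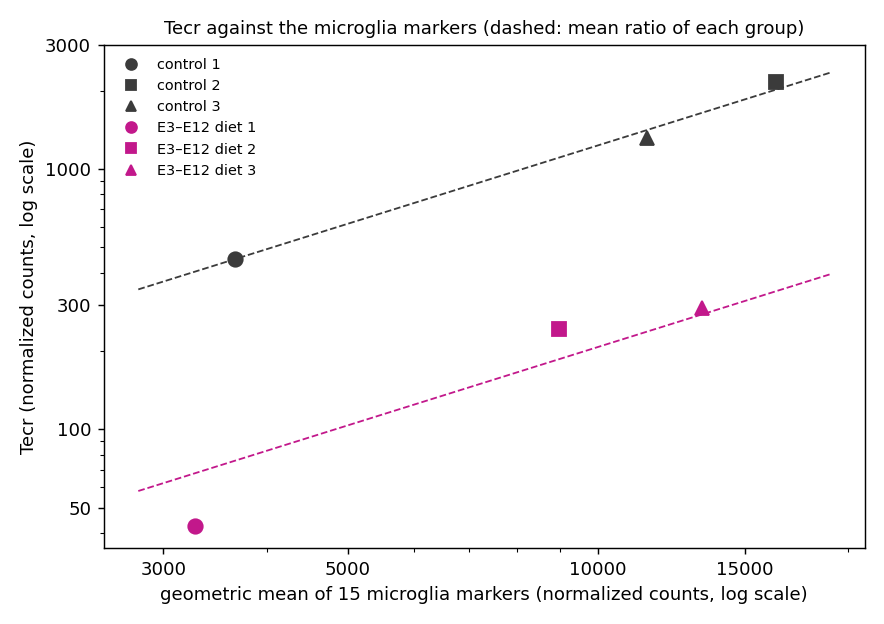
Each point is 1 library, with the geometric mean of 15 microglia markers on the horizontal axis and Tecr on the vertical axis, both in normalized counts on log scales. The dashed lines mark the mean ratio of each diet, 123 per 1000 in controls and 20.7 per 1000 in E3–E12 diet mice, and the ratio is higher in each control than in any E3–E12 diet library.

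The promoters of the members were searched to set their sequences side by side. RefSeq promoters (GRCm38.p6) were matched for all 10 genes, 11 promoters in all as Elovl1 has 2, and the 250 bases before each RefSeq start were searched on both strands for CCAAT, the core of the CCAAT box bound by NF-Y. Tecr held 3 matches, Elovl5 and Hsd17b12 held 2 each, Hacd3 and the first promoter of Elovl1 held 1 each, and the others held none. Of 32851 promoters, 33.8% held at least 1 match and 2.79% held at least 3. The sequences with the most matches are given 5′ to 3′ on the strand of the gene, at chr8:83594492-83594741 (minus strand) for Tecr, chr9:77917115-77917364 (plus strand) for Elovl5 and chr2:94157910-94158159 (minus strand) for Hsd17b12. The RefSeq start used for Tecr lies inside the gene span given above, which extends further upstream. Capitals mark CCAAT or its reverse complement ATTGG.
Tecr: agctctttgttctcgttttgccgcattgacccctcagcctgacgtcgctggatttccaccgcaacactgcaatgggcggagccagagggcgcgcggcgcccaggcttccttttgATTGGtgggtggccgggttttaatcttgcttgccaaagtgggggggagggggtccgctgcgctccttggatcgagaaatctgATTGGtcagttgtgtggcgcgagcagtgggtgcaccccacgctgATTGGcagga
Elovl5: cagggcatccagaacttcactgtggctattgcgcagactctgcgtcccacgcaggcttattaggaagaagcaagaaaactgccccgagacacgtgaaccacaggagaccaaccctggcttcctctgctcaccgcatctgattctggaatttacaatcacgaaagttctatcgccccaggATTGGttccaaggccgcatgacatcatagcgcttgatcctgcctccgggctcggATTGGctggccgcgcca
Hsd17b12: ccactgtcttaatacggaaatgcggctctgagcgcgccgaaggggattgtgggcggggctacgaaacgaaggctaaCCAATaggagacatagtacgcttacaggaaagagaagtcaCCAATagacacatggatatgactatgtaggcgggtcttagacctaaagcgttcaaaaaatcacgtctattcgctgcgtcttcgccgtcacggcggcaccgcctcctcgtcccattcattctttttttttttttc
In Tecr all of the matches were ATTGG, and in Hsd17b12 they were CCAAT. Other motifs were also searched on both strands. GGGCGG, the GC box, was found in 9 of the 11 promoters, Tecr included, and in 32.7% of all promoters. CACGTG, an E-box, was found in Elovl5 and Hacd3 and in 6.02% of all, and TCACNCCAC, a form of the sterol regulatory element, in none of the 11 and in 1.05% of all. These matches describe the letters of the windows only.

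The other 9 members were then compared between diets to ask whether the rest of the cycle differed along with Tecr. None passed an adjusted p of 0.1, the study's threshold (adjusted p = 0.999 for each, limma, two-sided, Benjamini-Hochberg over 18007 genes). The test and its input differ from the study's, which used DESeq2 on reads. With it the study lists Elovl6 as lower in E3–E12 diet mice under this threshold, along with Tecr and Fasn. Over all genes, 0 (0%) passed and 327 of 18007 had an unadjusted p under 0.05. This share is itself below 0.05, so the count shows no excess of small p-values. Of these 9 genes 4 had a higher and 5 a lower mean log2 level in E3–E12 diet mice, against 54.4% higher among all genes tested. Their median log2 fold change was -0.11, against 0.087 over all genes tested. Elovl6 alone was at -1 or lower, as were 9.57% of all genes, and Hacd1 alone at 1 or higher, as were 19.3%. This depended on the processing. With a pseudocount of 10, Elovl6 was at -0.87 and Hacd1 at 0.70, and after quantile normalization Hacd1 was at 0.88 and Elovl4 at -1.77. The groups overlapped in all 9, while 5.90% of the genes tested did not overlap (2.99% with all E3–E12 diet libraries above all controls). Exact permutation tests of single genes, two-sided, gave p between 0.2 and 1, where 3 libraries against 3 allow 0.1 at the least.

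**Figure D3:**
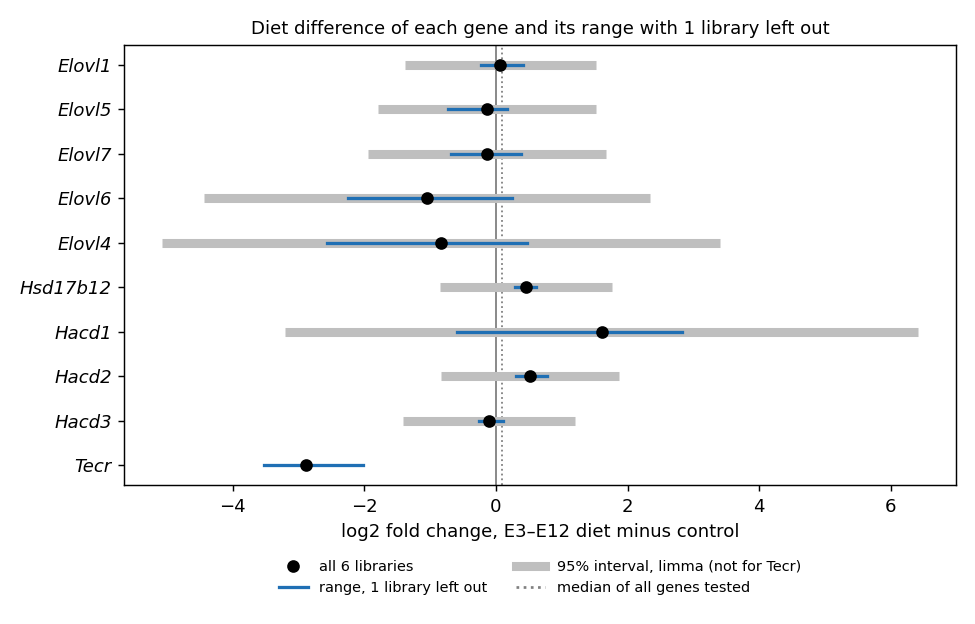
The horizontal axis gives the log2 fold change of each gene, E3–E12 diet minus control. Points are values from all 6 libraries, thin lines the range when 1 library is left out, and thick bars 95% intervals from limma, which are not drawn for Tecr. The intervals of the 9 other genes all include 0, and they are widest for Hacd1, Elovl4 and Elovl6.

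Of the condensing enzymes, Elovl1 makes saturated and monounsaturated very-long-chain acyl-CoAs for sphingolipids. It was at 621, 843 and 555 normalized counts in the controls and at 731, 433 and 1057 in E3–E12 diet mice (log2 fold change 0.067, 95% interval -1.38 to 1.52). Its highest and lowest libraries both belonged to E3–E12 diet mice. The sign turned to -0.060 without control replicate 3 and to -0.24 without E3–E12 diet replicate 3. Its exons share 53 bases with Cdc20 on the opposite strand, 1.94% of their length.

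Elovl5, which elongates polyunsaturated fatty acids, was at 668, 197 and 682 normalized counts in the controls and at 377, 453 and 396 in E3–E12 diet mice. The E3–E12 diet libraries lay between the lowest control, replicate 2, and the other controls. The log2 fold change was -0.14 (95% interval -1.79 to 1.51), and without control replicate 2 it was -0.73, with no overlap between the diets, as in 7.66% of all genes in the same direction in that fit. Without control replicate 1 or 3 it was 0.15 or 0.17.

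Elovl7, another elongase of saturated and monounsaturated chains, was at 807, 183 and 398 normalized counts in the controls and at 579, 301 and 252 in E3–E12 diet mice. In both diets replicate 1 was highest, and the log2 fold change of -0.14 (95% interval -1.95 to 1.67) was small against this spread. Without control replicate 1 it was 0.38, and without E3–E12 diet replicate 3 it was 0.10.

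Elovl6, which lengthens palmitate to stearate, spanned 45.8-fold between its extremes, close to the 50.4-fold of Tecr. It was at 651, 81.8 and 122 normalized counts in the controls and at 476, 102 and 14.2 in E3–E12 diet mice. Again replicate 1 was highest in both diets. Control replicate 1, the highest of all libraries in Elovl6 and in Elovl7, was also highest in oligodendrocyte markers (44595 normalized counts). Among E3–E12 diet libraries replicate 2 was highest in these markers (25540), and replicate 1 was at 18248. The part of these cells in the levels was not tested. The group means of Elovl6, 285 ± 318 and 197 ± 245 (SD, n = 3 libraries each), are on the scale of the normalized counts. On the log2(normalized count + 1) scale the difference of the means was -1.05 (standard error 1.42), and 0.24 without E3–E12 diet replicate 3. The study lists Elovl6 and Tecr as lower in E3–E12 diet mice, among genes it selected on these same libraries. Neither is thus independent evidence of its direction.

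Elovl4, the elongase of ultra-long chains in retina, skin and brain, was the lowest member. It was at 44.0, 0 and 28.5 normalized counts in the controls and at 18.1, 11.2 and 0 in E3–E12 diet mice. A library in each diet was listed at 0, and the log2 fold change was -0.84 (standard error 1.77). It was -2.57 without control replicate 2, with no overlap between the diets (7.66% of all genes in that direction), and 0.48 without E3–E12 diet replicate 3 and 0.18 without control replicate 1.

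Hsd17b12, the ketoacyl-CoA reductase, is the only enzyme of its step in this set. It was at 78.2, 101 and 124 normalized counts in the controls and at 113, 142 and 160 in E3–E12 diet mice. The diets overlapped only in that control replicate 3 lay above E3–E12 diet replicate 1. The means were 101 ± 22.8 and 138 ± 23.8 (SD, n = 3 libraries each), and the difference of the mean log2 levels was 0.46 (95% interval -0.85 to 1.76; exact permutation p = 0.2). After rescaling to library totals, all E3–E12 diet libraries were above all controls in Hsd17b12, as in 2.98% of the genes tested, and the log2 fold change was 0.58.

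The dehydratases Hacd2 and Hacd3 were above 0 in all 6 libraries. Hacd2 was at 291, 233 and 443 normalized counts in the controls and at 475, 367 and 502 in E3–E12 diet mice, with only control replicate 3 inside the range of the latter (log2 fold change 0.51, 95% interval -0.84 to 1.87). Hacd3 was at 291, 254 and 419 in the controls and at 282, 330 and 267 in E3–E12 diet mice, and had the narrowest spread of all members, 1.65-fold between its extremes. Its log2 fold change was -0.11 (95% interval -1.41 to 1.20), with a sign that depended on the scaling (0.014 after rescaling to library totals) and on control replicate 3 (0.10 without it).

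Hacd1, the dehydratase best known from muscle, was at 114, 0 and 80.5 normalized counts in the controls and at 305, 45.1 and 17.7 in E3–E12 diet mice. Control replicate 2, the library with the most genes at 0, was listed at 0. The log2 fold change was 1.60 (standard error 2.01), and -0.59 without that library. E3–E12 diet replicate 1, the highest in Hacd1, was also highest in choroid plexus markers (40082 normalized counts), and without it the log2 fold change was 0.48. The part of these cells in the result was not tested. Of the 50-base windows of its transcripts, 26.9% also occur in other annotated genes, so its level is uncertain. For Hacd2, Tecr and Elovl6 these shares were 6.74%, 6.18% and 3.98%, and for the remaining members at most 0.139%.

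Levels were next compared between members as normalized counts per kb of exon. The order of the means over all 6 libraries was Tecr (342 ± 373), Elovl1 (259 ± 81.6), Elovl5 (131 ± 52.7), Hacd3 (113 ± 22.4), Elovl7 (105 ± 58.4), Hacd2 (103 ± 28.6), Hsd17b12 (49.7 ± 12.1), Hacd1 (44.2 ± 52.6), Elovl6 (37.5 ± 40.2) and Elovl4 (5.61 ± 5.68; SD, n = 6 libraries). Of the 9 pairs of neighbours in this order, 3 differed in the same direction in 6 of 6 libraries. These were Elovl1 above Elovl5, Hacd2 above Hsd17b12 and Elovl6 above Elovl4 (exact sign permutation test within libraries, two-sided, p = 0.0313 each, the smallest that 6 libraries allow, adjusted p = 0.0938 over the 9 pairs). The other 5 pairs without Tecr were not separated beyond their spread, with adjusted p between 0.703 and 0.969. The pair of Tecr and Elovl1 is left as a description, since the values of Tecr chose the set, but it counts among the 9 pairs in the adjustment. The same 6 libraries set the order, and so which pairs were tested, and the p-values do not allow for this. The place of Tecr at the head rested on the controls. It was above Elovl1 per kb in control replicates 2 and 3 and below it in the remaining 4 libraries. In E3–E12 diet mice Tecr was at 19.5, 111 and 134 per kb and Elovl1 at 268, 159 and 388. Tecr made up 17.0%, 61.3% and 40.3% of the summed level per kb of the 10 genes in the controls and 1.88%, 14% and 13.3% in E3–E12 diet mice.

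**Figure D4:**
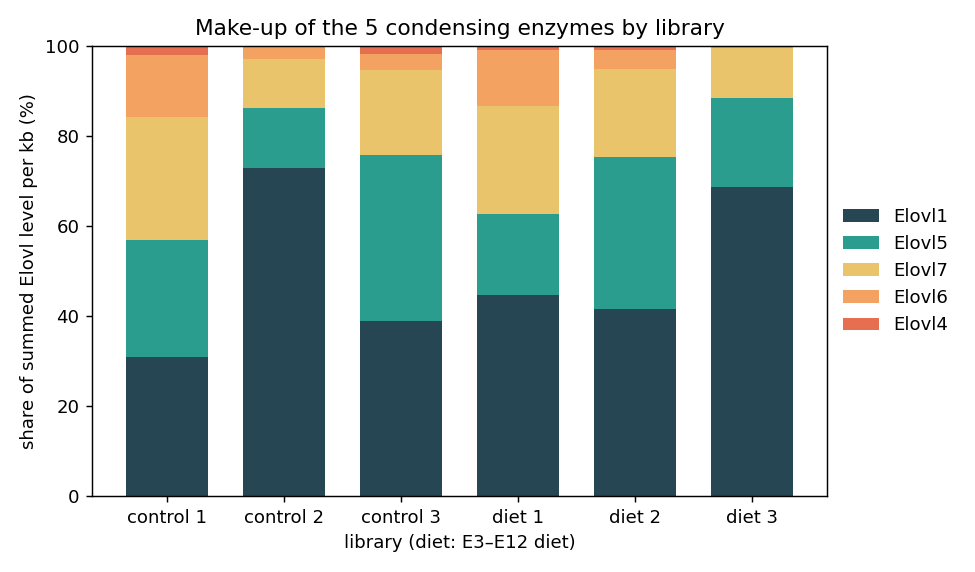
Bars show, for each library, the share of each of the 5 condensing enzymes in their summed level per kb of exon. Elovl1 was the largest share in every library, from 31.0% in control replicate 1 to 73.0% in control replicate 2, and Elovl4 stayed under 2%.

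The shares within the condensing step overlapped between diets for all 5 enzymes. Elovl1 made up 31.0%, 73.0% and 38.8% of the summed Elovl level per kb in the controls and 44.7%, 41.6% and 68.6% in E3–E12 diet mice. Elovl6 made up 13.8% and 12.3% in replicate 1 of the controls and of E3–E12 diet mice and between 0.391% and 4.16% elsewhere. Among the dehydratases, Hacd3 was the largest share in all controls and in E3–E12 diet replicate 2, Hacd1 in E3–E12 diet replicate 1 and Hacd2 in E3–E12 diet replicate 3.

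The levels of the other members were also set beside Tecr over the 6 libraries. Since the values of Tecr chose the set, likeness to them largely scores the same separation of the diets and is no separate evidence. Pearson correlations of the log2 levels with Tecr ran from -0.70 for Hacd1 to 0.19 for Hacd3, given as descriptions over 6 libraries that differ in diet and in depth. Among 10479 other genes whose mean reached 100 normalized counts, the 5 most alike were Nemf (0.997), Nck1 (0.992), Tbc1d23 (0.990), Bcap29 (0.989) and Gpbp1l1 (0.987), and 158 had a correlation of at least 0.9. Nemf was at 535, 740 and 697 normalized counts in the controls and at 359, 485 and 513 in E3–E12 diet mice, in the same order of libraries as Tecr but over a much narrower range.

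Other genes around the cycle were read from lists of 61 genes, and 58 reached a mean of 10 normalized counts. Of these, 0 passed the adjusted threshold in either direction (limma, as above), 30 had a higher and 28 a lower mean log2 level in E3–E12 diet mice, and the median log2 fold change was 0.028. Just 1 (1.72%, against 5.90% of all genes tested) did not overlap between diets. This was Abcd3, a transporter of the peroxisomal membrane, at 108, 151 and 36.6 normalized counts in the controls and at 34.0, 11.2 and 9.47 in E3–E12 diet mice (log2 fold change -2.37, standard error 0.82, limma adjusted p = 0.999). Control replicate 3 and E3–E12 diet replicate 1 were close to each other, at 36.6 and 34.0.

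Fatty acid synthase, Fasn, supplies the palmitate that Elovl6 extends, and was listed by the study as lower in E3–E12 diet mice on these same libraries. It was at 1714, 3364 and 177 normalized counts in the controls and at 189, 1044 and 149.6 in E3–E12 diet mice, so the diets overlapped, and the log2 fold change was -1.70 with 1.31 as its standard error. The 6 genes of palmitate synthesis had a median of 0.36 on the log2 scale, and 3 were higher, Fasn not among them. Of the 10 desaturases and their electron donors 7 were higher, with a median of 0.33, and of the 8 acyl-CoA synthetases and transport proteins 5 were higher, with a median of 0.30. Of 11 tested genes of ceramide and sphingolipid synthesis 7 were lower, with a median of -0.34. The list for sphingosine-1-phosphate breakdown, the other pathway in which Tecr acts, also held kinases that form this lipid. Its 5 genes had a median of 0.11 with 3 higher. The 7 genes of peroxisomal transport and oxidation had a median of -0.13 with 5 lower. For the 9 regulators of lipid synthesis it was 0.047 with 5 higher. None of these lists contained a gene past the adjusted threshold.

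Paralogs of the members outside the set were also read. Hacd4 was at 238, 469 and 376 normalized counts in the controls and at 239.5, 323 and 337 in E3–E12 diet mice (log2 fold change -0.23, standard error 0.57), with 11.0% of its exon length overlapped by Focad on the opposite strand. Elovl2, which elongates polyunsaturated fatty acids in the liver and brain, was at 147, 0 and 36.8 in the controls and at 139, 16.9 and 77.1 in E3–E12 diet mice. Elovl3 and Tecrl, the nearest relative of Tecr, did not reach a mean of 10 normalized counts, and Tecrl was at most at 14.3 in any library.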

How the data were processed

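RNA-seq of microglia was analysed in 3 control and 3 E3–E12 diet libraries. The values are normalized counts per gene, a signal that the authors made and deposited as a single table for 26789 genes. Per the labels, the submitters' processing notes name FastQC, STAR, featureCounts and DESeq2 with GRCm38, and versions and the gene annotation are not given in the sources used here. The name of the table mentions surrogate variables, and how they entered is not described. Low values gathered near multiples of 1 step per library (0.541 to 1.98 normalized counts), but only 32.2% to 40.4% of all values above 0 were within 0.1 of a whole multiple. Reads were therefore not recovered, no count model was run, and the number of reads behind a value is unknown. DESeq2, which the authors ran on their reads, was not used here.

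Symbols were matched for 26507 genes with GENCODE release M21 (GRCm38), which also gave exon lengths and shared 50-base windows. Genes were kept where their mean reached 10 (18007 genes), and log2(normalized count + 1) was compared with limma 3.58.1 in R 4.3.3, E3–E12 diet minus control, two-sided, with a threshold of 0.1 on the Benjamini-Hochberg adjusted p. The test was tested on simulated data. Exact permutation tests served single genes. P-values between diets rest on the spread between libraries, each from 1 litter per the study's methods, and limma also draws on the variances of all genes. Those between members rest on differences within libraries of both diets. How surrogate variables affected these spreads is unknown. Alternatives covered the pseudocount, the filter, the scaling, the variance trend, the replicate block and each library left out. Named genes were the 10 members, their 4 paralogs, Fasn, listed genes whose diets did not overlap, and the 5 genes most alike to Tecr. Outside this rule, Tyrobp was named after its values were seen. The members and lists were chosen with earlier results of these data known, and promoter motifs were chosen after the values were seen. Promoters are from RefSeq (GRCm38.p6).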

Additional observations from a re-analysis of the deposited data

How the results depend on the processing

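No gene passed the adjusted threshold in limma under any alternative, neither among all genes nor among the 9 members other than Tecr. Between 135 and 551 genes had an unadjusted p under 0.05, a share below 0.05 of the genes tested in every fit. Count models for whole reads were not run, because whole reads were not recovered. The number of members whose diets did not overlap was 1 (Tecr), or 2 after rescaling to library totals (with Hsd17b12), and ranged from 1 to 3 with 1 library left out. It was 3 without control replicate 2 (with Elovl4 and Elovl5) and without control replicate 3 (with Hacd2 and Hsd17b12), and 2 without E3–E12 diet replicate 1 (with Hsd17b12) or replicate 2 (with Hacd2). Of all genes tested, 14.4%, 12.6%, 14.7% and 13.1% did not overlap in these 4 fits, against 5.90% with all libraries, 5.83% after rescaling to totals and 1.63% with the marker scaling described next. The median log2 fold change of the 10 members was -0.12 and ranged from -0.64, without control replicate 2, to 0.17 with 1 library left out. The cause was not tested.

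The log2 fold change of Tecr, whose values chose the set, was between -3.52 and -2.02 over the alternatives. Hacd3 turned to 0.014 after rescaling to totals. Scaled to the microglia markers, an alternative chosen after seeing the data, Hacd3, Elovl5 and Elovl7 were at 0.16, 0.13 and 0.13 and the median of the members at 0.15. Rescaling moved the median of all genes from 0.087 to 0.20, and the marker scaling to 0.34. With 1 library left out, log2 fold changes ranged from -0.59 to 2.83 for Hacd1, -0.26 to 0.10 for Hacd3, -0.24 to 0.41 for Elovl1, -2.57 to 0.48 for Elovl4, -0.73 to 0.17 for Elovl5, -2.25 to 0.24 for Elovl6 and -0.68 to 0.38 for Elovl7. Hacd2 and Hsd17b12 kept their sign, with ranges of 0.31 to 0.77 and of 0.29 to 0.61.

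With the replicate number as a block, 0 genes passed in limma and 468 had an unadjusted p under 0.05, while fold changes and overlaps cannot change in this balanced design. Same-numbered libraries deviated from their group means with correlations of 0.26, 0.035 and 0.14 across genes. Control replicates 1 and 3 correlated best with the same-numbered E3–E12 diet library, and control replicate 2 with E3–E12 diet replicate 3 (0.087). Whether same-numbered libraries share more than the number was not tested. Hacd1 and Elovl4 did not reach a mean of 100 normalized counts and have no value under that filter. The median standard error over all genes was 0.85, so a difference of that size was not detectable in single genes.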
